A study of Mus musculus with 19 samples.

Results

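Transcripts of the insulin-like growth factor (IGF) system were followed in the ovaries of mice that lacked Desert hedgehog (Dhh), Indian hedgehog (Ihh) or both. The 10 genes were Igf1, Igf2, their receptors Igf1r and Igf2r, and the binding proteins Igfbp2 to Igfbp7. They were read through the 28 probe sets annotated to one of them alone, of 34945 single-gene probe sets on the array. All 28 passed the filter on low signals, as did 23341 probe sets in all. A further probe set annotated to Igf2r together with Airn was left out.

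IGF1 and IGF2 are secreted peptides that act through the IGF1 receptor, a tyrosine kinase, whereas the IGF2 receptor binds IGF2 and carries it to lysosomes. Binding proteins hold the peptides outside the cell and are cleaved to release them. In the mouse ovary IGF1 is made mainly by granulosa cells and enhances their response to follicle-stimulating hormone, and binding proteins vary with the health of the follicle. Dhh and Ihh are ligands that granulosa cells send to the surrounding theca and stroma.

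RNA of ovaries from mice aged 2 months was measured on 19 Affymetrix arrays, with an ovary-specific deletion per the labels and the Cre driver not given in the sources used here. The groups were 8 control arrays labelled Ihh_Dhh_dhet, heterozygous for both genes, 4 labelled Dhh_KO, 4 labelled Ihh_KO and 3 labelled Ihh_Dhh_dKO (DKO below), so that all controls carried 1 mutant copy of each gene. The labels do not say whether arrays of a group came from separate animals, and p-values then measure only the spread between arrays, whose small number limits the precision. A lower signal from a whole ovary can mean fewer cells of a type or less RNA per cell, which cannot be told apart here.

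The hybridization controls split the arrays into set 1 (controls 1 to 4 and DKO) and set 2 (controls 5 to 8 and both single knockouts), and each mutant was compared with the controls of its own set. The BioC 3'/5' ratio was 0.987 to 1.06 in set 1 and 0.685 to 0.781 in set 2. Signals were scaled to a trimmed mean of 500 on each array. The array labelled Ihh KO 4 went against its label: it gave a Dhh signal of 2.96, against 527 to 709 on the other Ihh KO arrays, and an Ihh signal of 108, against 12.5 to 43.5. Some Ihh KO results that this array moved are given with and without it. The rest, such as those of Igfbp2, Igf2r and Igfbp4, are given only with it. Granulosa markers such as Inha (7642 to 8122 on controls 1 to 4) and oocyte markers such as Zp3 (1712 to 3212) were present on the arrays.

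No IGF probe set passed the threshold in any of the 6 comparisons (limma, Benjamini-Hochberg adjusted p under 0.05 over 23341 probe sets). In DKO 0 of 28 were called against 2.15% of all probe sets, in Dhh KO 0 against 0%, and in Ihh KO 0 against 0.0343%. The tests of the DKO change against the Dhh KO change and against the Ihh KO change called 0 members, against 0.398% and 0.373% of all probe sets, and Ihh KO against Dhh KO called 0 members and 0%. Without the array labelled Ihh KO 4, Ihh KO against Dhh KO called 0 members and 0.197% of all probe sets. At an unadjusted limma p under 0.05 there were 7 of 28 IGF probe sets in DKO (14.2% of all probe sets), 3 in Dhh KO (10.8%) and 2 in Ihh KO (13.7%). For the differences between mutants there were 6 for DKO against Dhh KO (15.3%), 5 for DKO against Ihh KO (16%) and 7 for Ihh KO against Dhh KO (11.4%). By leading probe set, the one with the highest mean of each gene, the median log2 change of the 10 genes was -0.04 in DKO, -0.06 in Dhh KO and -0.01 in Ihh KO, beside 0.01, -0.03 and -0.04 over all probe sets. The members went both ways by leading probe set, with 3 higher and 7 lower in mean in DKO, and they are described gene by gene.

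**Figure D1:**
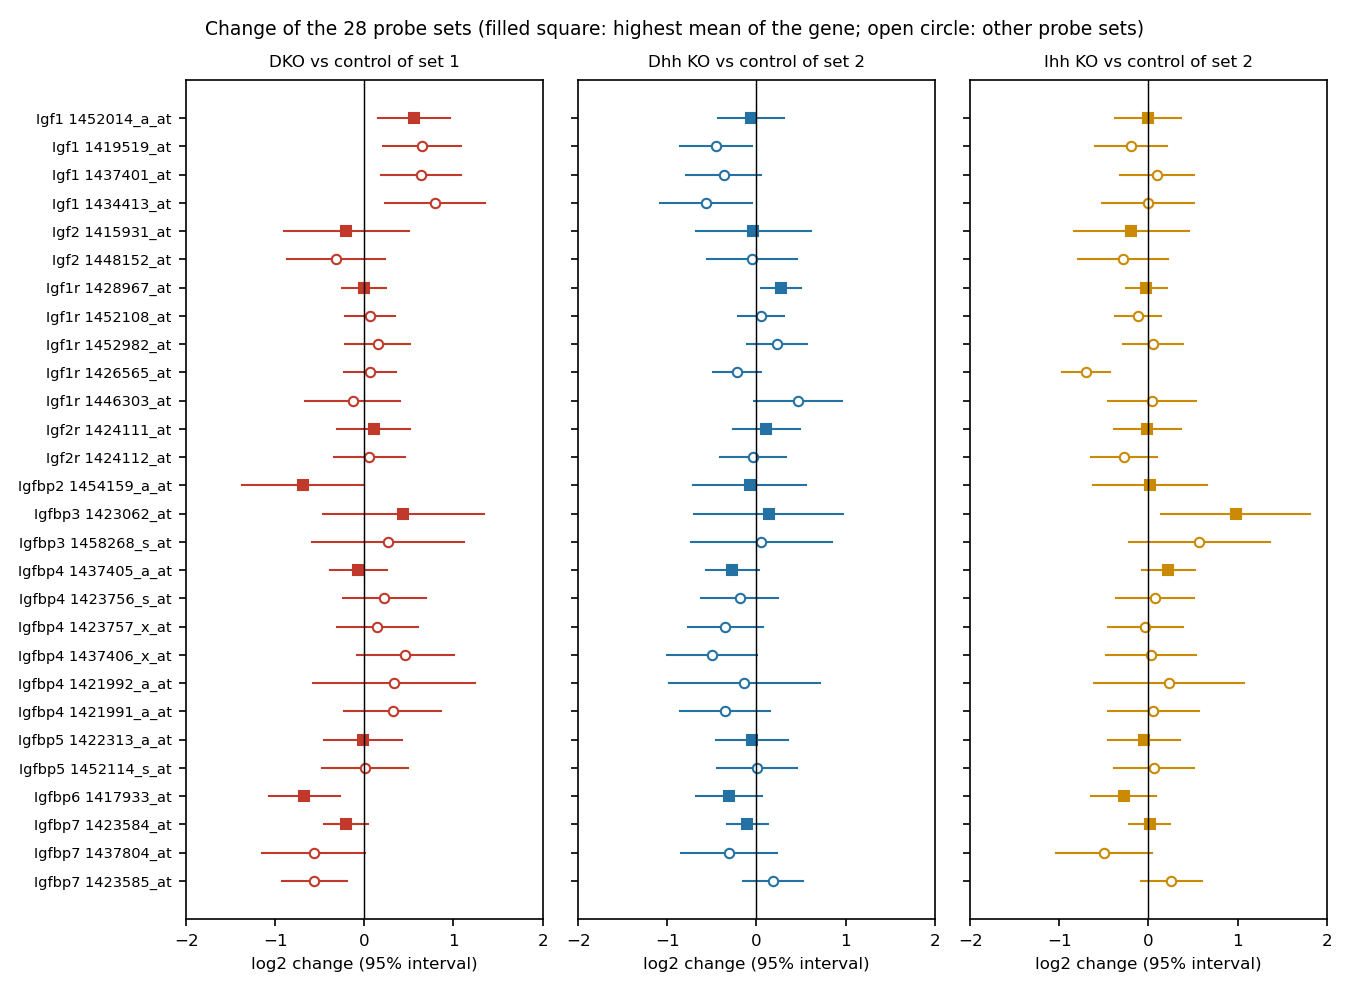
Log2 change (horizontal axis, with the 95% interval of the fit) of the 28 IGF probe sets in DKO, Dhh KO and Ihh KO, each against the controls of its set. Filled squares are the probe set with the highest mean of each gene. The 4 Igf1 probe sets lie right of 0 in DKO, Igfbp6 lies left of 0, and 1 of 5 Igf1r probe sets has its whole interval left of 0 in Ihh KO, with no adjusted p under 0.05.

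Igf1 was the ligand whose arrays stood furthest from the controls in DKO. Its leading probe set 1452014_a_at gave signals of 2921, 3341, 3172 and 3734 on controls 1 to 4 and 4068, 4924 and 5656 on the DKO arrays. Every DKO array was thus above every control array. The group means were 3292 ± 342 (SD, n = 4) and 4883 ± 795 (SD, n = 3), a log2 change of 0.56 (SE 0.19, 95% interval 0.16 to 0.96). The adjusted p from limma was 0.159, so the difference did not pass the threshold.

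The other 3 Igf1 probe sets gave DKO log2 changes of 0.65, 0.64 and 0.80 (limma adjusted p 0.13, 0.152 and 0.149). DKO and control arrays did not overlap for 1419519_at and 1437401_at. For 1434413_at DKO 1 (1020.0) lay under control 2 (1021) and control 4 (1115). Counted over the 28 IGF probe sets, 3 had every DKO array above every control array, all of them Igf1, against 6.32% of all probe sets. The Igf1 probe sets report on one transcript and are not independent. Same-numbered arrays of DKO and controls 1 to 4 correlated at r of 0.165, 0.168 and 0.116 across probe sets. Arrays of different number were not compared, so a pairing by number was not shown. A fit with the number as a fixed replicate block in set 1 was added after seeing the data. Control 4 has no DKO partner there and does not enter the change. In that fit the limma change of Igf1 1452014_a_at was 0.62 (adjusted p 0.0416). It was 0.75 (0.0319) for Igf1 1419519_at and 0.95 (0.0262) for Igf1 1434413_at. Igf1 1437401_at stayed above the threshold (0.74, 0.053). That fit called 2.34% of all probe sets, 4 of the 28 IGF probe sets among them.

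In the single knockouts Igf1 overlapped the controls. Probe set 1452014_a_at read 2469, 2967, 2715 and 3895 on controls 5 to 8, then 2343, 2188, 3515 and 3640.1 in Dhh KO and 2794, 3599.6, 2344 and 3236 in Ihh KO. The log2 changes were -0.06 (limma adjusted p 0.932) and -0.01 (0.993). The other 3 Igf1 probe sets had lower means in Dhh KO, with log2 changes of -0.45, -0.37 and -0.57 (adjusted p 0.429, 0.516 and 0.436), Dhh KO 1 and 2 being the lowest arrays of that group for each. The Gapdh 3'/5' ratio, a sign of RNA or labelling quality, was 2.08 to 2.79 in Dhh KO and 1.89 to 2.02 in its controls, and its part in these values was not tested.

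The DKO change minus the Dhh KO change of Igf1 was 0.62, 1.10, 1.00 and 1.36 on the log2 scale for the 4 probe sets (limma adjusted p 0.267, 0.0921, 0.121 and 0.0994). Against the Ihh KO change the differences were 0.57, 0.84, 0.54 and 0.80 (adjusted p 0.297, 0.171, 0.37 and 0.286). All 8 differences were above 0, and none passed the threshold. These comparisons share the DKO arrays and the control arrays.

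By 1452014_a_at controls 1 to 4 and 5 to 8 carried the same order of Igf1. Controls 1 and 5 were the lowest of their sets, and controls 4 and 8 the highest. The order also matched for 1419519_at and 1434413_at, but not for 1437401_at. The order of all 4 matched controls was the same in both sets for 11 of 28 IGF probe sets, against 19.1% of all probe sets. The labels do not say whether control 1 and control 5, and so on, share a source. Given a correlation of 0.632 between matched controls, the DKO change of Igf1 1419519_at differed from that in Dhh KO with an adjusted p of 0.0106, Igf1 1434413_at with 0.0139 and Igf1 1437401_at with 0.018, but Igf1 1452014_a_at with 0.0977. The fit called 3.98% of all probe sets and 4 of the 28 IGF probe sets, the fourth being Igfbp4 1437406_x_at (0.96, adjusted p 0.0469, against 0.212 without the correlation). For DKO against the Ihh KO change it called 4.27% of all probe sets and 3 of the 28: Igf1 1419519_at (0.84, adjusted p 0.0381), Igf1r 1426565_at (0.76, 0.0323) and Igfbp7 1423585_at (-0.82, 0.0415). With the array labelled Ihh KO 4 also left out, it called 3.88% of all probe sets and 1 of the 28, Igfbp7 1423585_at (-0.85, adjusted p 0.0491), while Igf1 1419519_at gave 0.85 (0.0502) and Igf1r 1426565_at 0.73 (0.0504).

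**Figure D2:**
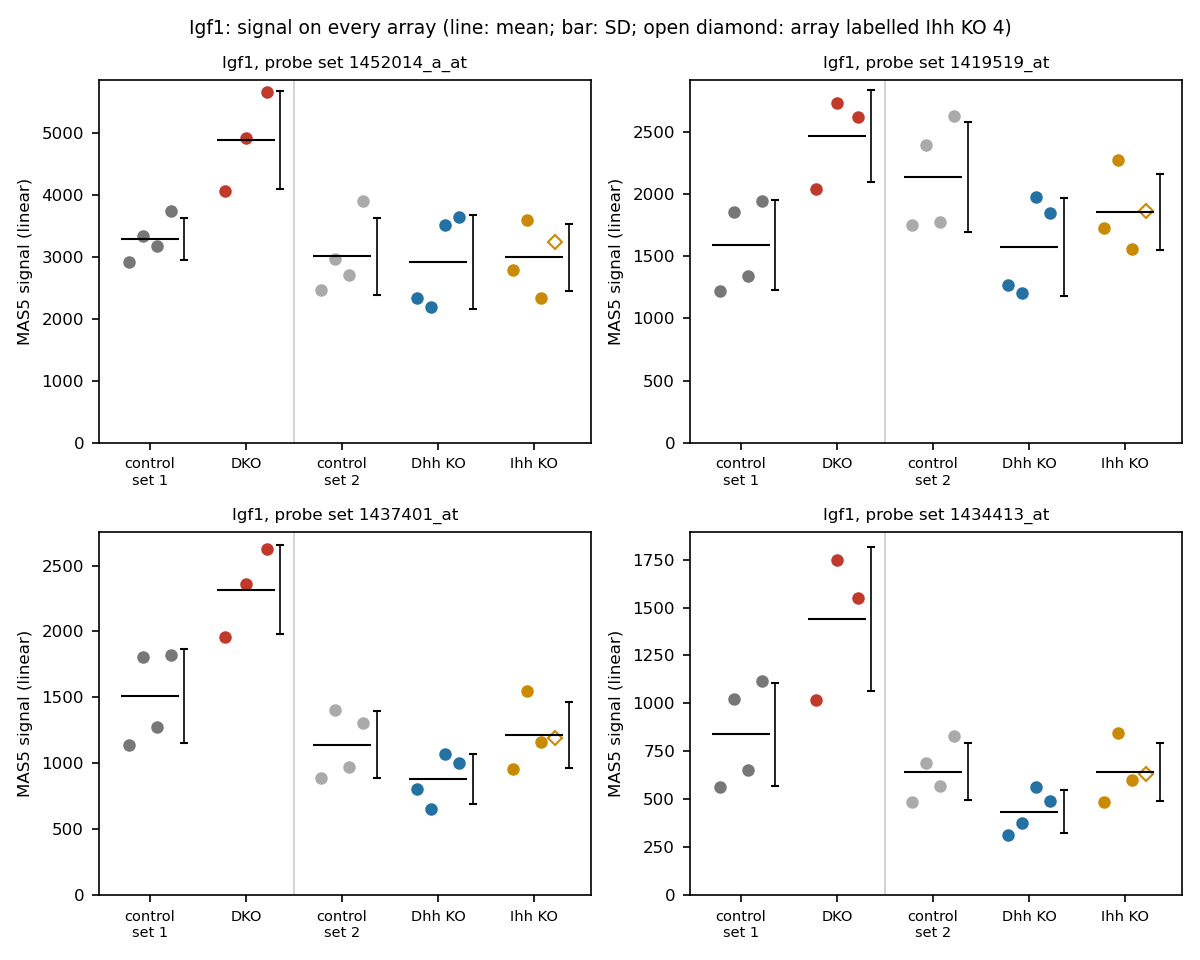
MAS5 signal (vertical axis, linear) of the 4 Igf1 probe sets on each array by group, with a line at the mean and a bar for the SD; the open diamond is the array labelled Ihh KO 4. For 1452014_a_at the DKO arrays sit at 4068 to 5656 and controls 1 to 4 at 2921 to 3734, while the set 2 groups overlap.

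The promoter of Igf1 is shown as the 250 bases before the gene's RefSeq start, on the plus strand of GRCm38.p6 at chr10:87860861-87861110, because Igf1 is the ligand with the widest separation of arrays. Capitals mark a CCAAT box, which reads ATTGG here since it lies on the other strand.
Igf1 promoter: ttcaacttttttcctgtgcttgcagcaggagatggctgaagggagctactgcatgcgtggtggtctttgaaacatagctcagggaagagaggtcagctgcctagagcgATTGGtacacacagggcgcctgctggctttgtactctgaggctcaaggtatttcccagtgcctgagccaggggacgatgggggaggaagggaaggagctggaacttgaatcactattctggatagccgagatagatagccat
The window held no GACCACCCA, the core that GLI factors of the Hedgehog pathway bind, on either strand. None of the 14 promoter windows of the 10 IGF genes held it, as against 0.225% of 32851 mouse promoter windows of the same length. CCAAT was present in 3 of the 14 and in 33.8% of all windows. A missing match says only that these letters are not in this window.

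Igf2, the ligand best known from fetal growth and an imprinted gene, overlapped the controls in DKO and Dhh KO. Probe set 1415931_at gave 346, 459, 511 and 558 on controls 1 to 4 and 500.0, 292 and 439 in DKO, overlapping ranges with a log2 change of -0.20 (SE 0.33, limma adjusted p 0.852). In set 2 it gave 337, 316, 369 and 476 on the controls, 291, 435, 364 and 368 in Dhh KO, and 181, 262, 293 and 774 in Ihh KO. The highest Igf2 value of all 19 arrays, 774, came from the array labelled Ihh KO 4, and the other 3 Ihh KO arrays lay under all 4 controls. The Ihh KO log2 change was -0.19 with that array (limma adjusted p 0.827) and -0.61 without it (adjusted p 0.19). The second Igf2 probe set, 1448152_at, had the same pattern: 248, 238 and 175 on Ihh KO 1 to 3, 526 on Ihh KO 4, and 287 to 389 on controls 5 to 8.

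Igf1r, the signalling receptor, gave the smallest adjusted p of any IGF probe set against its controls, in Ihh KO and by 1 of its 5 probe sets. Probe set 1426565_at read 447, 478, 394 and 363 on controls 5 to 8 and 249.5, 279, 254 and 237 on the Ihh KO arrays. Every Ihh KO array was under every control array, which held for 1 of 28 IGF probe sets and for 4.42% of all probe sets. No IGF probe set had every Ihh KO array above every control (0 of 28; 1.93% of all), and none separated in Dhh KO (0 of 28 higher and 0 lower; 2.14% and 3.71% of all). The means were 421 ± 51.8 (SD, n = 4) and 255 ± 17.7 (SD, n = 4), a log2 change of -0.70 (SE 0.13, 95% interval -0.97 to -0.43), and the limma adjusted p of 0.0526 fell just short of the threshold. Without the array labelled Ihh KO 4 the change of Igf1r 1426565_at was -0.67 (limma adjusted p 0.0496), in a fit that called 0.381% of all probe sets. With that array left out and matched controls correlated the adjusted p was 0.084, and with the arrays of set 2 alone it was 0.113, so the call was lost in both.

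The remaining Igf1r probe sets did not follow. Their log2 changes in Ihh KO were -0.02, -0.12, 0.06 and 0.04 (limma adjusted p 0.947, 0.708, 0.914 and 0.965). The probe set 1426565_at also differed between the control groups, from 263 ± 25.8 (SD, n = 4) in set 1 to 421 ± 51.8 in set 2 (log2 0.66, limma adjusted p 0.000937), so the Ihh KO arrays lay in the range of controls 1 to 4 (228 to 286). Its change in DKO was 0.06 (adjusted p 0.901), and the DKO change minus that in Ihh KO was 0.76 (SE 0.19, adjusted p 0.0842). The Gapdh 3'/5' ratio was 1.90 to 2.37 in Ihh KO and 1.89 to 2.02 in its controls, and its part was not tested. Of the 28 IGF probe sets 3 differed between the control groups, this one with Igf2r 1424112_at and Igfbp7 1437804_at, against 29.1% of all probe sets.

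Neither receptor was called in DKO or Dhh KO. The leading Igf1r probe set, 1428967_at, gave 3036, 2484, 2745 and 3122 on controls 1 to 4 and 2713, 2853 and 2909 in DKO, with a log2 change of -0.01 (95% interval -0.25 to 0.24). In Dhh KO it read 3658, 3848, 2914 and 4284 against 2988, 2842, 2698 and 3549.7 on controls 5 to 8, a log2 change of 0.28 (95% interval 0.05 to 0.50, limma adjusted p 0.386). Of the 4 Dhh KO arrays 3 lay above all controls and Dhh KO 3 lay among them. The other 4 Igf1r probe sets gave Dhh KO changes of 0.05, 0.23, -0.21 and 0.47 (limma adjusted p 0.916, 0.622, 0.56 and 0.483), and the last of these, 1446303_at, read 123, 76.7, 92.0 and 172 against 96.0, 78.2, 67.7 and 73.5 on controls 5 to 8. Igf2r, the clearance receptor, had changes of 0.11 and 0.05 in DKO, 0.11 and -0.04 in Dhh KO and -0.01 and -0.27 in Ihh KO for its 2 probe sets (limma adjusted p 0.522 to 0.987). Igf2r 1424111_at ranged over 851 to 1249.5 on controls 1 to 4 and over 1094 to 1219.7 in DKO.

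Igfbp6, a binding protein that prefers IGF2, had the smallest adjusted p of the members in DKO. Its single probe set gave 1027, 1056, 1405 and 871 on controls 1 to 4 and 627, 626 and 765 in DKO. All DKO arrays were under all control arrays, with means of 1089.7 ± 225 (SD, n = 4) and 672 ± 79.9 (SD, n = 3). The log2 change was -0.68 (SE 0.19, 95% interval -1.07 to -0.28) with a limma adjusted p of 0.0734. With the fixed replicate block in set 1 the change of Igfbp6 1417933_at was -0.78 (adjusted p 0.0295). Without control 4 it was -0.78 (adjusted p 0.041), and without Dhh KO 3, which enters only through the shared spread, -0.68 (adjusted p 0.0486).

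In set 2 Igfbp6 read 718, 929.6, 1008 and 717 on the controls, 630.3, 576, 922 and 615 in Dhh KO and 561, 699, 647 and 873 in Ihh KO. Of the 4 arrays of each single knockout 3 lay under all controls, and the fourth, Dhh KO 3 or the array labelled Ihh KO 4, lay among them. The log2 changes were -0.30 and -0.28 (limma adjusted p 0.546 and 0.507), and leaving out Ihh KO 4 brought the second to -0.39 (adjusted p 0.3). The DKO change differed from them by -0.37 (adjusted p 0.51) and -0.40 (0.466), with intervals of -0.91 to 0.17 and -0.94 to 0.15.

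The promoter of Igfbp6 is shown in the same way, at chr15:102143936-102144185 on the plus strand, as the binding protein nearest the threshold. Capitals mark a TATA motif on the other strand (TTTATA for TATAAA) and 2 CCAAT boxes.
Igfbp6 promoter: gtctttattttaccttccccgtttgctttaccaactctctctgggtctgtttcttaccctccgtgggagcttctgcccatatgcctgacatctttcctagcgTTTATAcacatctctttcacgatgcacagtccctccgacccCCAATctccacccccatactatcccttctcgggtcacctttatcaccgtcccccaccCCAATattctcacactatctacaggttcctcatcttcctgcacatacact
TATAAA was found in 2 of the 14 IGF windows, those of Igfbp6 and Igfbp4, and in 12.4% of all windows. The GC box GGGCGG was in 6 of the 14 and in 32.7% of all windows, and was in neither printed window.

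Igfbp7, a secreted protein of blood vessels and stroma with a low affinity for IGFs, was measured by 3 probe sets of unequal behaviour. Probe set 1423585_at gave 685, 842, 652 and 595 on controls 1 to 4 and 554, 559.9 and 322 in DKO, without overlap and with a log2 change of -0.56 (SE 0.18, limma adjusted p 0.117). Probe set 1437804_at gave 1686, 1723, 1579.7 and 1527 on the controls and 1341, 1265 and 771 in DKO, again without overlap (-0.57, adjusted p 0.366). The leading probe set, 1423584_at, overlapped, at 9119, 9662, 8695 and 9731 against 9639, 8156 and 6650.3 (-0.21, adjusted p 0.469). DKO 3 was the lowest array for all 3. Together with Igfbp6, these made 3 of 28 IGF probe sets with every DKO array under every control array, against 5.59% of all probe sets.

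By 1423585_at the single knockouts lay above their controls in mean: 523, 612, 590.2 and 664 on controls 5 to 8, 644, 790.0, 566 and 736 in Dhh KO, and 652, 718, 827 and 668 in Ihh KO. By this probe set the DKO change minus that in Dhh KO was -0.75 (limma adjusted p 0.158) and minus that in Ihh KO -0.82 (adjusted p 0.128). By 1437804_at the single knockouts lay under their controls in mean, with changes of -0.31 in Dhh KO and -0.50 in Ihh KO (adjusted p 0.693 and 0.398), and the DKO change differed from these by -0.26 and -0.07 (adjusted p 0.778 and 0.954). By the leading 1423584_at the differences were -0.10 and -0.22 (adjusted p 0.798 and 0.514). All 8 stromal markers and 6 of 8 endothelial markers had lower means in DKO too, as given below, and their part in the Igfbp7 values was not tested.

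Igfbp2, a binding protein of blood and many tissues, gave 1156, 970.3, 1565 and 686 on controls 1 to 4 and 1047, 544 and 474 in DKO. DKO 2 and 3 were under all controls and DKO 1 was not. The log2 change was -0.69 (SE 0.33, limma adjusted p 0.348). In Dhh KO the arrays read 613, 547, 1226 and 518 and in Ihh KO 674, 687, 608 and 984, against 746, 671, 1027 and 515 on their controls, with changes of -0.08 and 0.02 (adjusted p 0.951 and 0.988).

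Igfbp3, the main carrier of IGFs in blood, differed widely between the Ihh KO arrays. Probe set 1423062_at read 314, 194, 336 and 166 on controls 5 to 8 and 671, 1019, 310.4 and 253 in Ihh KO. Ihh KO 1 and 2 were above every control, and Ihh KO 3 and 4 were not. The log2 change was 0.98 (SE 0.40, limma adjusted p 0.292), and for Igfbp3 1423062_at without Ihh KO 4 it was 1.28 (adjusted p 0.142). By 1423062_at the difference of Ihh KO from Dhh KO was 0.84 (adjusted p 0.436). The second Igfbp3 probe set, 1458268_s_at, gave changes of 0.57 in Ihh KO and 0.26 in DKO (limma adjusted p 0.531 and 0.84). The summed signal of 4 corpus luteum markers was 6768 to 26770 in Ihh KO, overlapping 1193 to 17660 on controls 5 to 8. On Ihh KO 1 to 3 alone it was 18090 to 26770. Of these markers 3 had higher and 1 lower means in Ihh KO (0 called). The part of the corpus luteum in the Igfbp3 values was not tested.

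Igfbp3 varied inside the other groups too. Dhh KO arrays read 175, 498, 269 and 214 (log2 change 0.14, limma adjusted p 0.929). Controls 1 to 4 read 188, 184, 261 and 155 and the DKO arrays 283, 164 and 398 (0.44, adjusted p 0.724). The DKO arrays fell in the same order as those of the oviduct gene Ovgp1, at 3729.7, 53.6 and 4679, and the part of oviduct tissue in the Igfbp3 values was not tested.

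**Figure D3:**
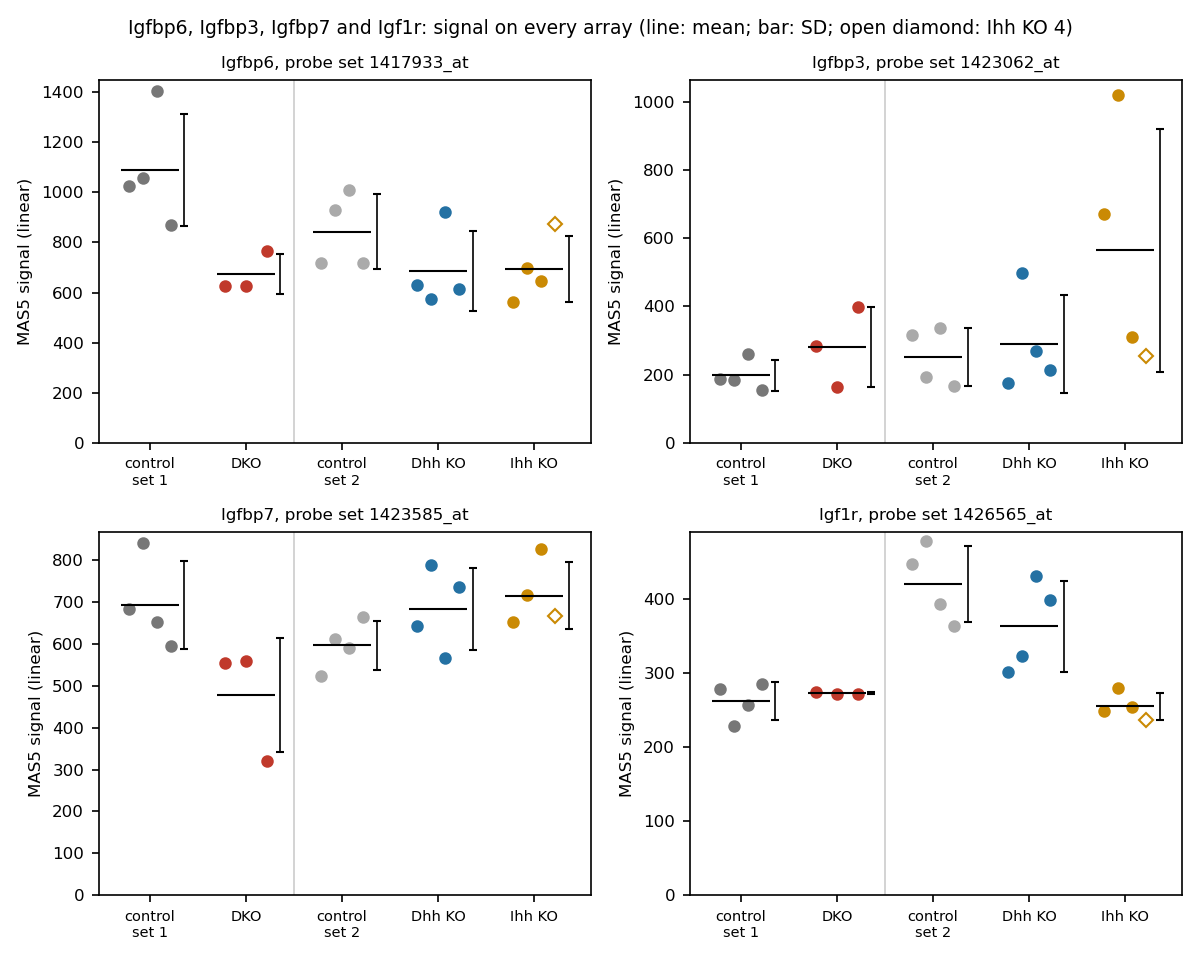
MAS5 signal (vertical axis, linear) of Igfbp6, Igfbp3, Igfbp7 and Igf1r on each array by group, with a line at the mean and a bar for the SD; the open diamond is the array labelled Ihh KO 4. Igfbp6 and Igfbp3 are drawn by leading probe set. Igfbp7 (1423585_at) and Igf1r (1426565_at) are drawn by their probe set of smallest limma p, in DKO and in Ihh KO respectively. Igfbp6 lies at 626 to 765 in DKO and 871 to 1405 on controls 1 to 4. Igf1r 1426565_at lies at 237 to 279 in Ihh KO and 363 to 478 on controls 5 to 8.

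Igfbp4, which restrains IGF action and is cleaved by the protease Pappa in dominant follicles, was measured by 6 probe sets. The leading one, 1437405_a_at, gave 5803, 8038, 6311 and 5204 on controls 5 to 8 and 5425, 4926, 5184 and 5179 in Dhh KO. The Dhh KO arrays lay close together at the low end of the controls, and 3 of them were under all 4 controls (log2 change -0.27, limma adjusted p 0.501). Ihh KO arrays read 6471, 7480.0, 6880.3 and 8499, each above every Dhh KO array. The other Igfbp4 probe sets overlapped between Ihh KO and Dhh KO. The share of all probe sets that separate these groups was not counted. By 1437405_a_at the difference of Ihh KO from Dhh KO was 0.49 (SE 0.14, limma adjusted p 0.3).

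All 6 Igfbp4 probe sets had a lower mean log2 value in Dhh KO than in the controls, by changes of -0.50 to -0.14 (limma adjusted p 0.468 to 0.933). In DKO the 6 changes were -0.07 to 0.46 (adjusted p 0.457 to 0.9). On the control arrays of both sets Igfbp4 1421992_a_at was far higher in control 2 (3166, against 1273 to 1801) and control 6 (2779.7, against 933 to 1359). Igfbp5, a binding protein known in rodents from atretic follicles, stayed near the controls: by 1422313_a_at controls 1 to 4 gave 4084 to 6309.9 and DKO 3605 to 6069.6, with a change of -0.02 (95% interval -0.45 to 0.42). Its changes in Dhh KO and Ihh KO were -0.05 and -0.05, with intervals of -0.45 to 0.35 and -0.45 to 0.36.

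**Figure D4:**
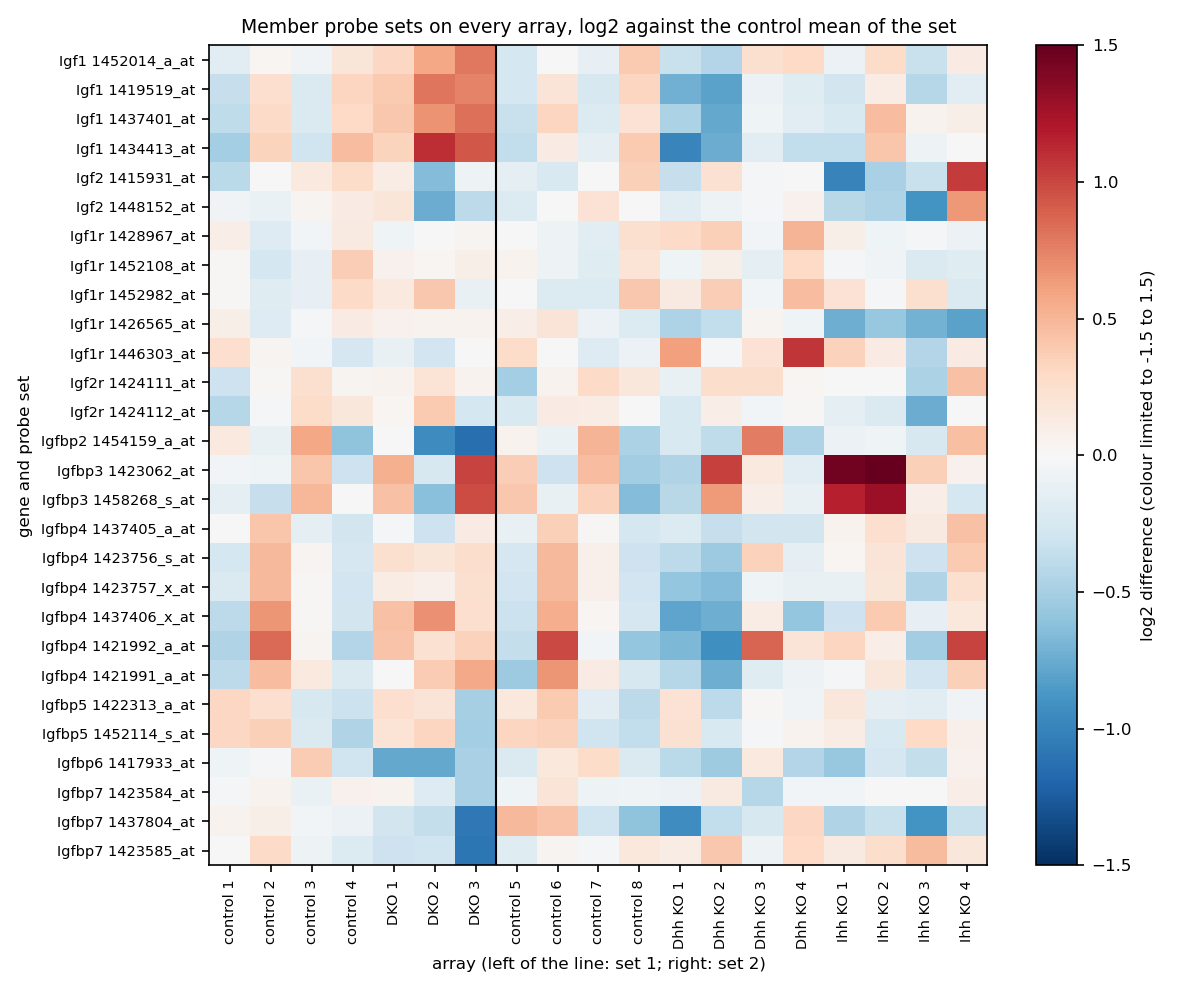
Log2 value of each of the 28 IGF probe sets (rows) on each of the 19 arrays (columns) minus the control mean of its set, with colour limited to -1.5 and 1.5 and a line between the sets. The 4 Igf1 rows are red on the 3 DKO arrays, Igfbp3 is darkest on Ihh KO 1 and 2, and Igf2 is blue on Ihh KO 1 to 3 and red on Ihh KO 4.

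Over the 19 arrays, as log2 values minus the control mean of the set, the 4 Igf1 probe sets correlated with one another at r of 0.83 to 0.955, the Igfbp4 probe sets at 0.55 to 0.956 and the 2 Igfbp3 probe sets at 0.939. The Igf1r probe sets correlated at -0.06 to 0.752 and those of Igfbp7 at 0.184 to 0.633, so these genes cannot be read from 1 probe set. Between genes the highest r was 0.788, of Igf1 1437401_at with Igfbp4 1437406_x_at, and the lowest -0.774, of Igf1r 1428967_at with the same Igfbp4 probe set. The probe sets of each pair were read on the same arrays, and the values include the group differences.

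The genes whose values over the 19 arrays were most like a member's, among 11830 genes by Pearson's r on the same scale, were taken for the 4 members of smallest adjusted p against controls by leading probe set. For Igf1 they were Dym (0.922), Angptl1 (0.906), Jam2 (0.901), Wdr59 (0.889) and Dag1 (0.887), with r of 0.771 to 0.851 over the 16 arrays without DKO. For Igfbp6 they were Lhpp (0.9), Pank1 (0.878), Bnip3 (0.865), Dmpk (0.861) and Mt2 (0.858). For Igfbp2 they were Smarca1 (0.894), Ppp1r14a (0.876), Pigb (0.87), Bnip3 (0.866) and Slc25a30 (0.862), so that Bnip3 was listed for both binding proteins.

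For Igfbp3 the most alike were Tm4sf1 (0.88), Dnaja4 (0.869), Acss2 (0.853), Mvd (0.842) and Slc25a1 (0.832). Mvd, an enzyme of cholesterol synthesis, read 1065 and 1585 on Ihh KO 1 and 2 and 243 and 232 on Ihh KO 3 and 4, against 257 to 463 on controls 5 to 8. Acss2, which makes acetyl-CoA from acetate, read 1378, 2063, 1163 and 876 there, against 428 to 877. Ihh KO 1 and 2 were the highest arrays of their group for Igfbp3, Mvd and Acss2. Mvd and Acss2 were picked by their correlation with Igfbp3 over these same arrays, so this is no separate observation.

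Other genes of the pathway were read from lists each by its leading probe set. Of 9 genes that act outside the cell 6 were tested, and 1 was called in DKO, Igfbp1 (higher; 1.05% of all probe sets were called higher), with 0 in Dhh KO and 0 in Ihh KO. Of 26 genes that carry the signal inside the cell 22 were tested, and 1 was called in DKO (lower; 1.1% of all), with 0 in either single knockout. Of 4 genes listed for IGF RNA, 1 was tested, Igf2bp3, and was not called in any. Their median log2 changes in DKO were 0.26 outside the cell, with Igfbp1 included, and 0.05 inside it, beside 0.01 over all probe sets.

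Igfbp1, the binding protein best known from liver and decidua, rose in DKO from a low level. It gave 35.5, 56.2, 44.1 and 82.6 on controls 1 to 4 and 119, 176 and 418 in DKO, all DKO arrays above all controls. The log2 change was 1.86 (SE 0.39, limma adjusted p 0.0151). Without DKO 3 the change of Igfbp1 1418918_at was 1.36 (adjusted p 0.117), with arrays of set 1 alone it was 1.86 (adjusted p 0.0985), and with the fixed replicate block there it was 2.06 (adjusted p 0.0396). The probe set passed the filter on low signals only through the DKO arrays, with a mean log2 value of 6.21 over the 16 other arrays against the filter's 6.26. With no filter the adjusted p was 0.0194. In set 2 control 8 alone gave 175, near the level of DKO 2, and the other arrays 44.1 to 111. The DKO change of Igfbp1 exceeded that in Dhh KO by 2.35 (SE 0.53, adjusted p 0.0584) and that in Ihh KO by 2.41 (SE 0.53, adjusted p 0.0544), short of the threshold; with matched controls correlated both passed (adjusted p 0.00675 and 0.00679).

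Grb10, an imprinted adaptor that binds the IGF1 and insulin receptors and restrains their signal, fell in DKO. It gave 1846, 2243, 2123 and 1883 on controls 1 to 4 and 1295, 1109.6 and 634 in DKO, without overlap. The log2 change was -1.05 (SE 0.18, limma adjusted p 0.00392). The 2 further Grb10 probe sets also separated, at 355 to 467 against 148 to 221 and at 223 to 315 against 109 to 172. The change of Grb10 1425458_a_at kept its size but lost the call with arrays of set 1 alone (-1.05, adjusted p 0.0795) and with the fixed replicate block there (-1.08, adjusted p 0.0564).

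In the single knockouts Grb10 read 3379.9, 3899, 3392 and 3014 on controls 5 to 8, 3215, 3315, 2965 and 2441 in Dhh KO and 2906, 3425, 2757 and 3413 in Ihh KO, overlapping throughout. The DKO change of Grb10 minus that in Dhh KO was -0.85 (limma adjusted p 0.116) and minus that in Ihh KO -0.92 (adjusted p 0.0964), and with matched controls correlated both passed (0.0248 and 0.0179). The pathway genes nearest the threshold in Ihh KO were Pik3r2, a regulatory subunit of PI3 kinase, and Stc1, a secreted inhibitor of the Pappa protease. Pik3r2 read 236, 166, 146 and 180.2 in Ihh KO against 335, 336, 269 and 271, all lower (log2 -0.72, limma adjusted p 0.121). Stc1 read 99.1, 85.4, 82.3 and 485 against 195, 714, 656 and 593, and its high value was the array labelled Ihh KO 4 (-1.77, adjusted p 0.181). Without that array the Stc1 change was -2.36 (limma adjusted p 0.0508), and with matched controls correlated as well its adjusted p was 0.0183, whereas Pik3r2 gave -0.73 without it (0.0929). In Dhh KO the smallest p belonged to Gsk3b (0.22, adjusted p 0.297) and the kinase Akt1 (-0.34, adjusted p 0.354).

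**Figure D5:**
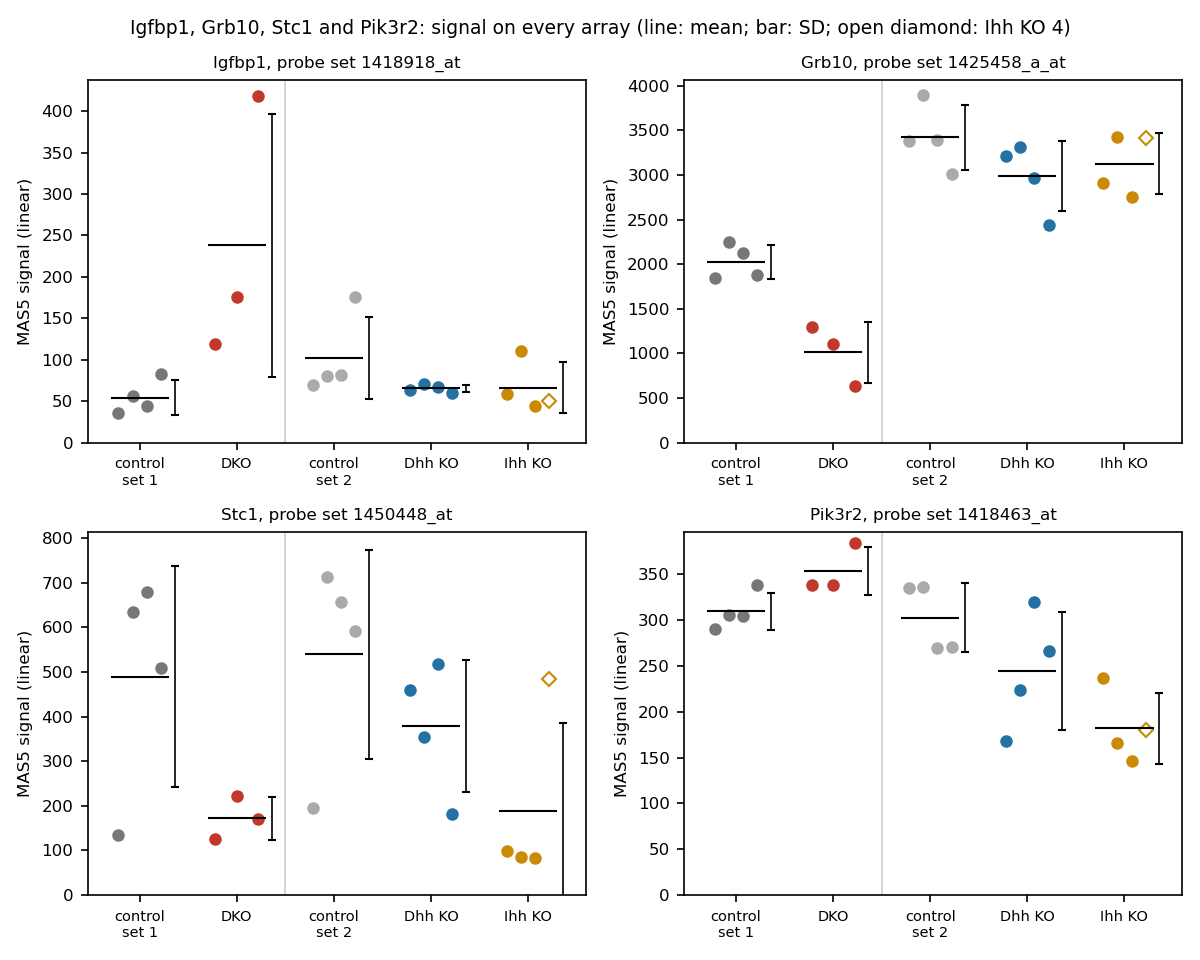
MAS5 signal (vertical axis, linear) of Igfbp1, Grb10, Stc1 and Pik3r2 on each array by group, with a line at the mean and a bar for the SD, cut at 0; the open diamond is the array labelled Ihh KO 4. DKO arrays lie at 119 to 418 for Igfbp1 and 634 to 1295 for Grb10, outside the range of controls 1 to 4, and 3 Ihh KO arrays lie at 82.3 to 99.1 for Stc1.

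Markers of ovarian cell types were set beside the DKO values of Igf1, Igfbp6, Igfbp7, Igfbp1 and Grb10. Of 7 granulosa markers 0 were called, and their summed signal was 29610 to 38640 on controls 1 to 4 and 30110 to 41400 in DKO. All 6 theca markers tested had lower means in DKO (3 called). So did all 8 for smooth muscle (4 called) and all 8 for stroma (2 called). Of 8 endothelial markers 6 had lower and 2 higher means (median log2 change -0.19), and 1 was called, lower. The stromal sums were 31310 to 47510 on the controls and 22790 to 34000 in DKO. The sums for smooth muscle were 14240 to 19060 and 5238 to 12200, and those for endothelium 3785 to 5101 and 2757 to 3933. All 8 surface epithelial markers had higher means (2 called; sums 3983 to 5837 against 7266 to 10670). All 5 oviduct markers tested did so too (4 called, sums 637 to 1285 against 1648 to 12100), as did 2 of 3 mast cell markers, both called. The filter on low signals took in the DKO arrays, which favours markers high in DKO, such as Ovgp1 of the oviduct list (not called). Whether the markers passed the filter without the DKO arrays was not tested. All 6 macrophage markers had higher means in DKO (0 called, median log2 change 0.56; sums 5600 to 10490 against 8264 to 10480) and lower means in Dhh KO (0 called, median -0.17). Of 7 oocyte markers 6 had higher means in DKO (0 called; sums 6421 to 12040 against 9137 to 14600). None of these markers was listed at 0. The Gapdh 3'/5' ratio was 1.68 to 1.78 in DKO and 1.69 to 1.80 on controls 1 to 4. The part of these cell types in the IGF values was not tested.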

How the data were processed

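Per the submitters' processing notes the deposited values are MAS5 intensities on a linear scale; the MAS5 version is not given in the sources used here, and the trimmed mean of 500 was found from the values. The RNA was amplified before labelling, per the labels' protocols. After adding 7.02 (the 10th percentile of all signals) values were taken to log2 and tested on 23341 single-gene probe sets at or above the 40th percentile of mean log2 value, in R 4.3.3 with limma 3.58.1 (5 group means, 19 arrays, intensity trend, two-sided, Benjamini-Hochberg, threshold 0.05). Changes are on that log2 scale, which understates those of low signals. Symbols came from GEO's platform annotation, and all 28 IGF probe sets matched RefSeq by Entrez identifier. Promoters are RefSeq's (GRCm38.p6), searched on both strands. The fit was tested on simulated data.

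The members and gene lists were chosen with earlier results of these data known. Named were the members, each pathway gene called in DKO and the pathway genes of smallest p; Ovgp1, Mvd and Acss2 were singled out after their values were seen. Same-numbered arrays of controls 1 to 4 and DKO correlated weakly (r 0.165, 0.168 and 0.116 across probe sets), as did those of DKO and Dhh KO (0.203, 0.157 and 0.159). Other same-numbered pairs ran from -0.304 (control 3 and Ihh KO 3) to 0.362 (control 3 and Dhh KO 3). A pairing by number rests on the values alone and was not shown, since differently numbered pairs were not compared. Alternatives covered normalization, centring, pseudocount, filter, 1 probe set per gene, pooled controls, the set alone, correlated matched controls, a replicate block, moderation and each array left out. Figures were drawn with matplotlib 3.10.9.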

Additional observations from a re-analysis of the deposited data

Results flagged for a closer look

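Within groups of 4 arrays, 1 array stood apart from the other 3 by Dixon's criterion in 3 of 112 group values of the IGF probe sets, where chance gives about 1 in 20. Igfbp7 1423584_at read 10952 on control 6, where controls 5, 7 and 8 gave 9109 to 9188. Igfbp2 1454159_a_at read 1226 on Dhh KO 3 and 518 to 613 on the other Dhh KO arrays. Igfbp6 1417933_at read 922 on Dhh KO 3 and 576 to 630.3 on the others. Dhh KO 3 was thus the high array of its group for both Igfbp2 and Igfbp6. Of 84 differences tested between the changes of the mutants, 0 passed the threshold.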

How the results depend on the processing

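The counts of IGF probe sets called stayed at 0 in all 6 comparisons under quantile normalization, median centring, another pseudocount, either filter setting, 1 probe set per gene and the random replicate block (correlation -0.00415), which changed no call. With arrays of the set only they were 0 in the 4 comparisons within a set. With all 8 controls as 1 group 3 were called in DKO (3.86% of all probe sets). The shared controls then cancel in the differences of changes, which compare DKO directly with a single knockout of the other set. These called 10 for DKO against Dhh KO (26.2%) and 4 for DKO against Ihh KO (17.9%). The difference between the sets is not removed there, and 29.1% of all probe sets differed between the control groups. With correlated matched controls the counts for the DKO change against the Dhh KO and Ihh KO changes were 4 and 3. With Ihh KO 4 also left out they were 4 and 1, beside 1 in DKO. Without an intensity trend 1 was called in Ihh KO (Igf1r). The fixed replicate block, added after seeing the data, called 4 in DKO; it has 2 residual degrees of freedom. Leaving out 1 array gave 0 to 1 in DKO (1 without control 4 or Dhh KO 3), 0 to 1 in Ihh KO (1 without control 8 or Ihh KO 4), 0 to 2 for DKO against the Dhh KO change and 0 to 1 against the Ihh KO change (both highest without control 4). Over all probe sets, DKO calls numbered 502, and 126 to 902 under the alternatives other than leaving out an array. For DKO against the Dhh KO change 93 became 40 to 6107, and against the Ihh KO change 87 became 16 to 4186. Each was highest with all controls as 1 group, where the controls cancel. Ihh KO calls were 0 to 24 against 8. With Ihh KO 4 left out they were 72 with matched controls correlated and 34 with arrays of the set only. Leaving out 1 array gave 154 (without DKO 3) to 706 (without control 4) in DKO, 0 to 176 (without control 8) in Ihh KO, 22 to 308 for DKO against the Dhh KO change and 0 to 396 against the Ihh KO change (both lowest without DKO 3 and highest without control 4). Of 5514 recomputed changes of the members, Igfbp1 and Grb10, 287 took another sign, none of them called. The cause of these differences was not tested.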

Other observations

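Pappa2, a protease of binding proteins that lay under the filter and is named after its values were seen, gave 7.83, 132, 48.7 and 11.9 on controls 1 to 4 and 237, 844 and 11.4 in DKO. DKO 1 and 2 were above every control and DKO 3 was not.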
